A study of Mus musculus with 6 samples.

Results

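The p53 circuit was followed through 10 genes chosen by name: Trp53, which codes for p53, its regulators Mdm2, Mdm4 and E4f1, and the p53 targets Cdkn1a, Ccng1, Zmat3, Bax, Aen and Trp53inp1. The cells were E14 mouse embryonic stem cells of 129/Ola background, grown with serum and leukemia inhibitory factor, after an siRNA against Son or a control siRNA had been transfected with Lipofectamine 2000. RNA was taken 24 h after transfection. Total RNA without ribosomal RNA came from 2 control and 2 knockdown samples, and Nanopore long-read cDNA from 1 sample of each kind. No source used here says whether the 2 samples of a group were separate cultures, so p-values measure the spread between these samples, which may be technical. Per the labels, both long-read samples, the control included, were made from one and the same knockdown sample of the total RNA set, so how the long-read control relates to the total RNA samples is unclear. The 10 genes held 47 of the 85015 introns listed in any total RNA library, and 45 of the 47 were listed in all 4 libraries.

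The p53 protein is a transcription factor that halts the cell cycle or starts apoptosis when cells are stressed. MDM2 is the ubiquitin ligase that marks p53 for degradation and is itself a p53 target, which closes a feedback loop, and MDM4 binds p53 and blocks its activity. E4F1 is a zinc finger protein that modifies p53 and also controls genes of pyruvate metabolism and the checkpoint kinase gene Chek1. SON is a nuclear speckle protein that helps remove introns with weak splice sites.

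Each total RNA table gives, for every intron, reads that cross its ends split (spliced out) or unsplit (still holding the intron), and splicing efficiency is the split share of both. The libraries held from 10556187 to 16012286 split reads at 5′ junctions, and the long-read libraries held 3080426 (control) and 1874851 (knockdown) reads. Son itself had spliced reads of 283 and 314 CPM (reads scaled to a common library total, with TMM scaling between libraries) in the controls and 93.5 and 102 after knockdown, a log2 fold change of −1.61. The 7 tested stem cell markers of 8 (Pou5f1, Nanog, Esrrb, Zfp42, Klf4, Tfcp2l1 and Dppa5a) summed to between 3985 and 4229 CPM in the 4 libraries. Gata6, Sox17, Cdx2, Col1a1, Col1a2 and Col3a1, markers of endoderm, trophoblast and fibroblasts, had no long read in either library. Other markers of those lists were detected: Thy1 and Vim summed to between 378 and 428 CPM of spliced reads, Krt8 lay between 23.3 and 32.3 and Gata4 between 1.83 and 2.91, with overlapping groups in each. Of 6 early differentiation markers (T, Mixl1, Sox1, Pax6, Fgf5 and Otx2), none lacked a long read. Together they had 4.545 (control) and 7.467 (knockdown) CPM of long reads. Pax6 lay between 1.25 and 1.63 CPM of spliced reads, with overlapping groups. Their part in the results was not tested.

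The first comparison asked whether the level of spliced RNA of the 10 genes differed after the knockdown. Trp53 rose by 1.24-fold, and it was the only member past the threshold. The other 9 genes did not pass it, and their log2 fold changes lay between −0.17 and 0.30. The median over the members was 0.22 on the log2 scale, against 0.01 over all 9474 genes tested, and 9 of 10 members were above 0, against 51.1% of all genes. The call count for the members was 1 of 10 for more reads, against a background of 1.96%, and 0 of 10 for fewer, against 6.76%. In bulk RNA a change in RNA per cell and a change in the mix of cells cannot be told apart.

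Trp53 had 990 and 1020 spliced CPM in the controls and 1113 and 1376 after knockdown, summed over 5 introns (means 1005 ± 21.4 against 1244 ± 186; SD over 2 libraries each). Both knockdown libraries were above both controls, and knockdown replicate 2 was higher than knockdown replicate 1. The log2 fold change of 0.31 had a standard error of 0.080 and an adjusted p of 0.0154 (edgeR, Benjamini-Hochberg over all genes tested). Its size depended on the library: 0.15 without knockdown replicate 2 and 0.45 without knockdown replicate 1. It was 0.28 without control replicate 1 and 0.33 without control replicate 2. Each of these fits leaves 1 sample in a group, so their calls are not given. With the best covered intron alone the call was lost (0.33, edgeR adjusted p = 0.153). In the long reads, Trp53 had 649 reads in the control and 506 in the knockdown, which is 211 and 270 CPM, a ratio of 1.28 (95% interval 1.14 to 1.44, counting error only, as in all long-read intervals here). Trp53 and Trp53inp1 were the members whose long-read interval left out 1.

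**Figure D1:**
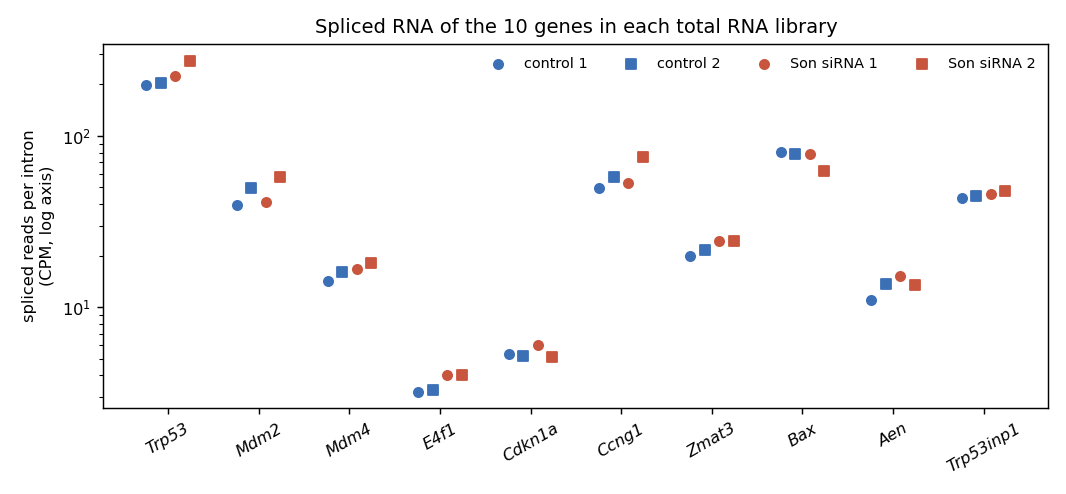
Spliced reads per listed intron (CPM, log axis) of the 10 genes in the 4 total RNA libraries, blue for control, red for Son siRNA, circles for replicate 1 and squares for replicate 2. Trp53 is at 198 and 204 in the controls and at 222 and 275 in the knockdown, and E4f1 and Cdkn1a are the lowest.

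Divided by the number of listed introns, spliced reads were most numerous for Trp53, with 198 and 204 CPM per intron in the controls. Bax followed with 80.2 and 78.0. E4f1 with 3.21 and 3.30 and Cdkn1a with 5.37 and 5.22 were the lowest. Ccng1 (49.4 and 57.2), Trp53inp1 (43.6 and 44.8) and Mdm2 (39.3 and 49.4) came next in this order, and the control values of Mdm2 and Trp53inp1 overlapped. The order holds only for the introns listed, since those of one gene had very different numbers of split reads. For Trp53 the listed introns were 1, 2, 3, 5 and 10. Long reads of the control gave another order, with Bax at 390 CPM above Trp53 at 211. There Cdkn1a at 53.9 was above Mdm4 at 50.0 and Zmat3 at 28.9, and E4f1 at 12.7 was the lowest.

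Inside Trp53, introns 1, 2 and 3 carried most of the spliced reads. Intron 1 had 332 and 333 CPM in the controls and 374 and 469 after knockdown, and introns 2 and 3 showed the same order of libraries, with both knockdown libraries above both controls. Intron 5, which is 78 nt long, had 62.9 and 73.5 CPM in the controls and 76.9 and 66.6 after knockdown, and there the groups overlapped. This view by intron was chosen after values were seen and has no test. The gene has a processed pseudogene, Trp53-ps, that shares 365 of the 1742 windows of 31 bases in Trp53-201. Of the 30 windows across each exon junction, 29 were in Trp53-ps at intron 2, 13 at intron 3, 14 at intron 5, 20 at intron 10 and 0 at intron 1. Trp53-ps had 2 and 1 long reads. Its part in the number of reads per intron, and in the shares at the last junction given next, was not tested.

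Trp53 also has an alternative last exon, which starts 96 nt upstream of the usual acceptor and gives the transcripts Trp53-202 and Trp53-206. The last exon codes for 79 bases in Trp53-203 and for 52 in Trp53-206, so the ends of the encoded proteins differ. Printed here are the 30 bases before and after the last junction on chromosome 11 in the GENCODE M21 transcripts, with the last exon in capitals, because the letters after the junction are where the isoforms part.
Trp53-203: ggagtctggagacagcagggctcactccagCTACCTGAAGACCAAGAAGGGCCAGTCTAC
Trp53-206: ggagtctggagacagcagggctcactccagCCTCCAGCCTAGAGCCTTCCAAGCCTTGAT

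Split reads at the alternative acceptor were 75 of 207 reads split at the shared donor in control replicate 1 (36.2%, 95% Wilson interval 30.0 to 43.0) and 27 of 123 in control replicate 2 (22.0%, 15.6 to 30.0). In the knockdown they were 115 of 276 (41.7%, 36.0 to 47.6) and 56 of 140 (40.0%, 32.3 to 48.3). Both knockdown libraries were above both controls, but the controls differed from each other by more than the nearest control and knockdown libraries did, and the means were 29.1 ± 10.1% and 40.8 ± 1.18% (SD, n = 2 each). In the long reads, 163 of 636 coding Trp53 reads in the control (25.6%, 22.4 to 29.2) and 159 of 495 in the knockdown (32.1%, 28.2 to 36.4) were assigned to these transcripts. Trp53-202 alone had 74 reads in the control and 86 in the knockdown, a ratio of 1.91 (1.38 to 2.64). Trp53-206 had 89 and 73 reads, a ratio of 1.35 (0.9751 to 1.857), an interval that includes 1. With the usual acceptor, the ratios were 1.33 (0.9202 to 1.925) for Trp53-203 and 1.14 (0.9742 to 1.33) for Trp53-201. The ratio of Trp53-206 was thus close to that of Trp53-203. The comparison was picked after values were seen and has no test, and with 2 against 2 libraries an exact two-sided permutation test cannot go below p = 0.333.

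**Figure D2:**
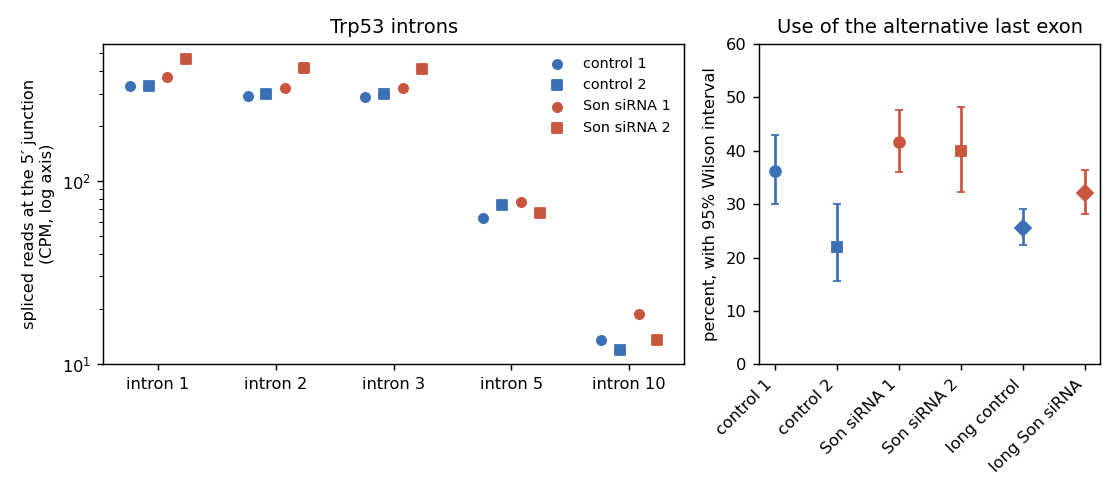
Left, split reads at the 5′ junction of the Trp53 introns listed in all 4 libraries (CPM, log axis); right, use of the alternative last exon in percent with 95% Wilson intervals, for the 4 total RNA libraries (split reads at its acceptor over those at the shared donor) and the 2 long-read libraries (share of coding reads). Introns 1 to 3 lie far above introns 5 and 10, and the knockdown libraries are at 41.7% and 40.0%.

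The regulators of p53 came next. Mdm2 had 236 and 296 spliced CPM in the controls and 245 and 346 after knockdown, with groups that overlapped and replicate 2 above replicate 1 in both groups. Its log2 fold change was 0.15 (95% interval −0.10 to 0.40, adjusted p = 0.544), and it was −0.11 without knockdown replicate 2 and 0.38 without knockdown replicate 1. Mdm4 had 100 and 112 CPM in the controls and 117 and 127 after knockdown, so the groups did not overlap. Its log2 fold change was 0.20 (0.01 to 0.40, unadjusted p = 0.0448, adjusted p = 0.237). The long-read ratios were 0.978 (0.842 to 1.13) for Mdm2 and 1.11 (0.857 to 1.43) for Mdm4.

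E4f1 had 32.1 and 33.0 spliced CPM in the controls and 40.2 and 40.1 after knockdown, over 10 introns. Both knockdown libraries were above both controls by far more than the replicates differed. The log2 fold change was 0.30 (95% interval 0.05 to 0.56, unadjusted p = 0.0229), but it did not pass the adjusted threshold (0.159). It stayed between 0.28 and 0.32 when each library was left out in turn. Long reads were few for E4f1, 39 and 27, with a ratio of 1.14 (0.670 to 1.91).

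Among the targets, Cdkn1a, the cyclin-dependent kinase inhibitor p21, had 5.37 and 5.22 CPM in the controls and 6.03 and 5.10 after knockdown, over 1 intron. The groups overlapped, and the log2 fold change of 0.08 had an interval from −0.44 to 0.60, so changes of this size in either direction were not detectable at this depth. Ccng1, cyclin G1, had 247 and 286 CPM in the controls and 264 and 376 after knockdown. Knockdown replicate 2 stood alone above the others, and the log2 fold change of 0.26 (0.03 to 0.50, adjusted p = 0.196) became −0.01 without that library and 0.50 without knockdown replicate 1. In the long reads the Ccng1 ratio was 0.860 (0.704 to 1.05).

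Zmat3, an RNA-binding zinc finger protein, had 80.1 and 86.0 CPM in the controls and 97.8 and 98.0 after knockdown, so both knockdown libraries were higher. Its log2 fold change was 0.24 (0.04 to 0.44, unadjusted p = 0.0210, adjusted p = 0.149). Aen, a nuclease linked to apoptosis, had 22.1 and 27.3 CPM in the controls and 30.4 and 27.1 after knockdown, with overlapping groups and a log2 fold change of 0.23 (−0.08 to 0.54).

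Bax, the pore-forming protein of mitochondrial apoptosis, had 160 and 156 CPM in the controls and 157 and 124 after knockdown. Knockdown replicate 2 was the lowest library and replicate 1 lay among the controls. The log2 fold change was −0.17 (−0.37 to 0.04, adjusted p = 0.376), and it was −0.35 without knockdown replicate 1 and −0.014 without knockdown replicate 2. Trp53inp1, a stress-induced partner of p53, had 87.2 and 89.7 CPM in the controls and 91.9 and 95.6 after knockdown, a log2 fold change of 0.08 (−0.11 to 0.28). In the long reads it had 182 and 68 reads, a ratio of 0.614 (0.458 to 0.815), which lies below 1 while the total RNA value lies above it. The 2 assays used different RNA selection and 1 long-read library a group.

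Counted without a threshold, 5 of the 10 genes (Trp53, Mdm4, E4f1, Zmat3 and Trp53inp1) had both knockdown libraries above both controls, against 24% of all genes, and 0 had both below, against 24.6%. Trp53, Mdm4, E4f1, Ccng1 and Zmat3 had an unadjusted p under 0.05 by edgeR. The share of all genes under that p is not given here, so their number is not read as a result. Without knockdown replicate 1, the log2 fold changes were 0.45 for Trp53, 0.38 for Mdm2, 0.27 for Mdm4, 0.50 for Ccng1 and −0.35 for Bax. They were 0.30 for E4f1, 0.24 for Zmat3, 0.15 for Aen, 0.11 for Trp53inp1 and −0.06 for Cdkn1a. In that fit the lone knockdown sample is assumed to vary like the controls, so its calls are not given. In knockdown replicate 2, Trp53, Mdm2, Mdm4, Ccng1, Zmat3 and Trp53inp1 were the highest of the 4 libraries, and Bax and Cdkn1a the lowest.

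**Figure D3:**
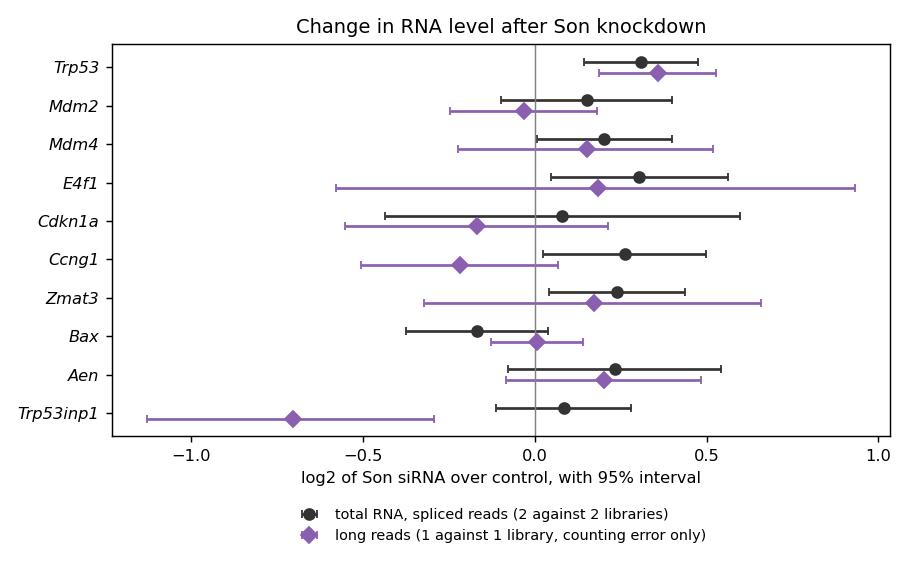
Log2 of knockdown over control with 95% intervals, for spliced reads of total RNA (black circles, 2 against 2 libraries) and long reads (purple diamonds, 1 against 1 library, counting error only). Trp53 lies to the right of 0 in both assays, at 0.31 and 0.36, and the long-read point of Trp53inp1 lies to the left at −0.70.

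The second comparison asked whether introns of the 10 genes were spliced less efficiently. None of the 45 introns tested passed the threshold, against a background of 1.76% of 63309 introns called, of which 1.71% were lower in the knockdown. By edgeR, 3 introns had an unadjusted p under 0.05, and DESeq2 and limma also called 0. The share of all introns under that p is not given here, so the 3 are not read as a result. This count does not show that efficiency was the same. Intervals of the log2 odds ratio, in which a positive value stands for lower efficiency after knockdown, often spanned more than 1 unit. This also held for Mdm2 intron 11 (−0.80 to 0.25), which had 528 to 859 unsplit reads in each library. Of the members' introns, 17 were at most 500 nt long, a class in which 5.02% of all tested introns were called lower. The median log2 odds ratio was −0.04 over the members' introns and 0.12 over all introns, and 30 of 45 were below 0. Both knockdown libraries lay below both controls for 6 introns, against 24.3% of all introns, and above both for 5, against 13.1%.

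**Figure D4:**
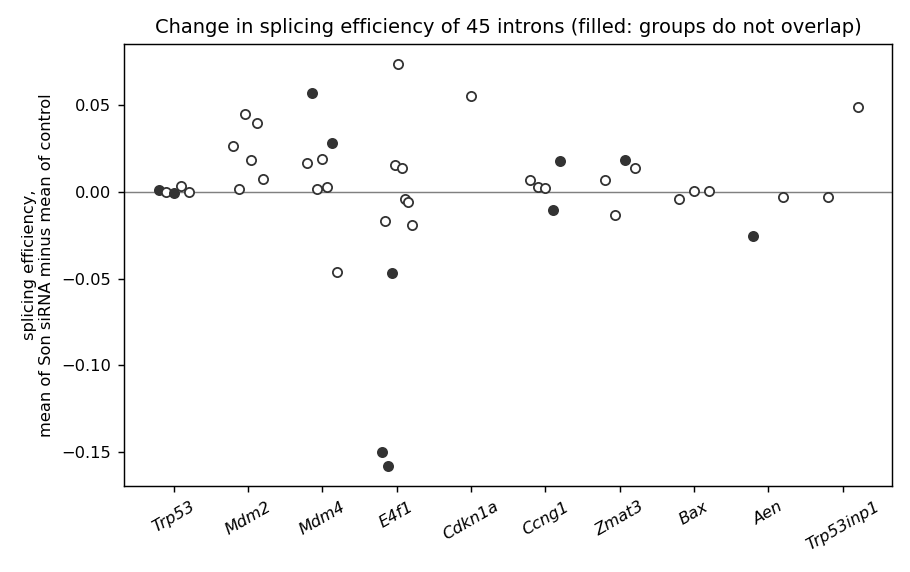
Difference in mean splicing efficiency, Son siRNA minus control, for the 45 introns of the 10 genes, with filled points where the libraries of the 2 groups do not overlap. Introns 9 and 11 of E4f1 lie lowest, at −0.16 and −0.15, and most introns of the other genes lie near 0.

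The 3 introns with the largest losses of mean efficiency among those that did not overlap belonged to E4f1. Its intron 9 (GRCm39 chr17:24664314-24664419, 106 nt, between coding exons) had efficiencies of 0.822 and 0.690 in the controls and 0.590 and 0.605 after knockdown. The reads were 38 unsplit and 175 split, 31 and 69, 98 and 141, and 45 and 69 in that order. The log2 odds ratio was 1.14 (95% interval 0.11 to 2.18, unadjusted p = 0.0308, adjusted p = 0.416), and it was 0.59 without control replicate 1 and 1.63 without control replicate 2.

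Intron 11 (chr17:24663664-24663749, 86 nt) had 0.962 and 0.842 in the controls and 0.704 and 0.800 after knockdown, with only 25 reads in the shallowest library. Intron 8 of the transcript E4f1-205 (chr17:24664529-24664919, 391 nt) had 1.00 and 0.982 in the controls and 0.962 and 0.926 after knockdown. It had 0 and 2 unsplit reads in the controls and 7 and 12 after knockdown (odds ratio of 2.74 on the log2 scale, 0.80 to 4.68, unadjusted p = 0.00592, adjusted p = 0.168). Introns 8 and 11 were singled out after their values were seen. Intron 10, which lies between introns 9 and 11, had the lowest efficiency of the gene in the controls (0.577 and 0.512) and overlapped with the knockdown (0.505 and 0.551).

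The exon junctions at these neighbouring introns come from the GENCODE M21 transcript E4f1-201, 20 bases each side, with the 3 exon bases on each side of the removed intron in capitals. In the annotation of that transcript, introns 9, 10 and 11 lie between coding exons. The intron bases themselves, including the splice sites, were not used here.
E4f1 intron 9: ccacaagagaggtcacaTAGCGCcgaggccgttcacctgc
E4f1 intron 10: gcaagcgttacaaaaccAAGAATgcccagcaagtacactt
E4f1 intron 11: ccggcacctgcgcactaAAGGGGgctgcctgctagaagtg

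Over all 10 introns, E4f1 had efficiencies of 0.892 and 0.875 in the controls and 0.822 and 0.856 after knockdown (0.883 ± 0.012 and 0.839 ± 0.024, SD, n = 2 each). The unsplit reads behind them were 119 and 94 in the controls and 251 and 135 after knockdown. Both knockdown libraries were below both controls, but the log2 odds ratio of 0.54 (−0.03 to 1.12) did not pass the test (unadjusted p = 0.0640, adjusted p = 0.425). It was 0.35 without knockdown replicate 1 and 0.72 without knockdown replicate 2. For splicing efficiency per gene, 0 of 10 members were called, against a background of 7.11% of 9370 genes (6.98% lower), and 0 had an unadjusted p under 0.05. E4f1 had the lowest p of the 10.

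**Figure D5:**
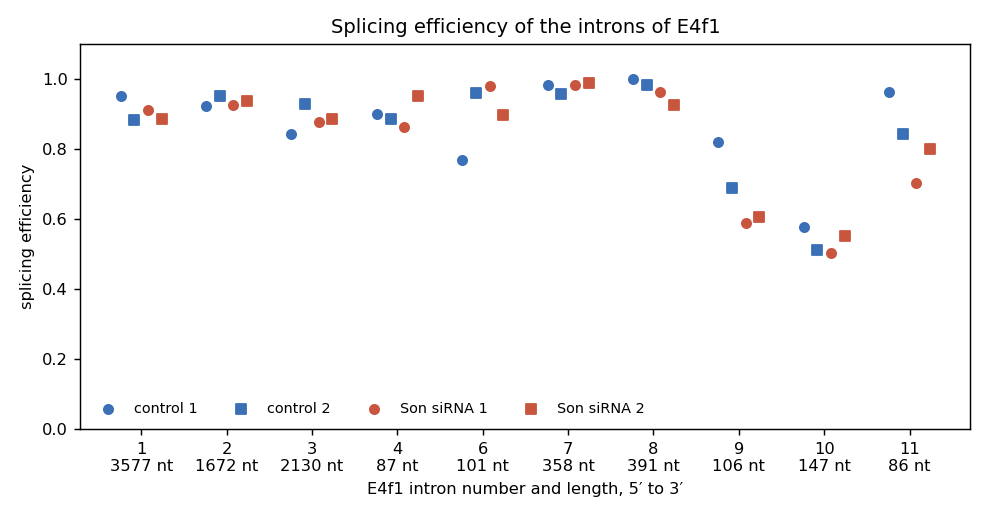
Splicing efficiency of the 10 E4f1 introns listed in all 4 libraries, ordered from 5′ to 3′ with intron length, blue for control and red for Son siRNA. Introns 8, 9 and 11 have both knockdown libraries below both controls, and intron 10 has the lowest control values.

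Among the genes whose efficiency over the 4 libraries was most like that of E4f1, by Euclidean distance over 3082 genes with at least 8 introns, were Cand2 (distance 0.0224) and Cnot6l (0.0240). Cand2 had 0.892 and 0.866 in the controls and 0.843 and 0.860 after knockdown. Neither passed the edgeR test of splicing efficiency, with adjusted p-values of 0.788 and 0.331. They were picked for efficiencies close to those of E4f1, which did not pass either, so this is no separate result.

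None of the introns of the other members was called. Trp53 was spliced at 0.992 and 0.992 in the controls and 0.993 and 0.992 after knockdown. Its intron with the largest difference among those named by rule, intron 5, had 0.987 and 0.995 against 0.996 and 0.994.

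Among the members' introns listed in all 4 libraries, Mdm2 had the lowest efficiency in its intron 6 (chr10:117532345-117537469, 5125 nt), with 0.367 and 0.364 in the controls and 0.460 and 0.360 after knockdown. The means were 0.365 ± 0.0023 (control) and 0.410 ± 0.070 (knockdown), each with the SD of 2 libraries, and knockdown replicate 1 alone was high. Introns 9 and 11 of Mdm2 had about 100 spliced CPM and introns 4 to 6 far fewer, from 6.66 to 39.4. At intron 3 of Mdm2-202, the donor had 7, 7, 9 and 8 split reads and the acceptor 553, 449, 585 and 447, in the order control 1, control 2, knockdown 1, knockdown 2, so most reads split at that acceptor were not split at this donor. Efficiency over the gene was 0.773 and 0.747 in the controls and 0.800 and 0.768 after knockdown, with overlapping groups. It passed the edgeR test as higher when split and unsplit reads were scaled separately (log2 odds ratio −0.36, adjusted p = 0.0147). That scaling sets unsplit reads against the unsplit total of each library, so the value is relative to the shift over all genes. It also lowered the log2 odds ratio of every other member, for E4f1 from 0.54 to 0.39.

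Intron 2 of Mdm4-208 (chr1:132890922-132898755, 7834 nt), listed in 3 libraries and so not tested, had 39 and 22 unsplit reads in the controls, 27 in knockdown replicate 1 and 0 split reads in all 3. Mdm4 intron 9 (chr1:132922322-132924300, 1979 nt) had 0.742 and 0.732 in the controls and 0.799 and 0.789 after knockdown, so the knockdown was higher in both libraries (adjusted p = 0.820). Zmat3 intron 3 (chr3:32397868-32399606, 1739 nt) was also higher in both, with 0.961 and 0.963 in the controls and 0.984 and 0.977 after knockdown (odds ratio of −1.01 on the log2 scale, −1.97 to −0.04, unadjusted p = 0.0411, adjusted p = 0.472). Aen intron 2 (chr7:78552579-78555590, 3012 nt) had 0.824 and 0.843 in the controls and 0.816 and 0.801 after knockdown. None of these was called.

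Ccng1 intron 1 (chr11:40644896-40645827, 932 nt) had 0.869 and 0.865 in the controls and 0.883 and 0.886 after knockdown, higher in both knockdown libraries. Cdkn1a intron 2 (chr17:29317812-29318317, 506 nt) had 0.506 and 0.415 in the controls and 0.603 and 0.429 after knockdown, and Trp53inp1 intron 2 (chr4:11164570-11165089, 520 nt) had 0.630 and 0.594 against 0.707 and 0.616. In both, knockdown replicate 1 was the highest library and the groups overlapped. Bax intron 4 (chr7:45112928-45114612, 1685 nt) had 0.873 and 0.841 in the controls and 0.896 and 0.809 after knockdown, and overlapped too. One Bax intron is also listed under Gm45808, which overlaps Bax on the same strand, and was left out of the gene sum.

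The long reads were used to see which isoforms of the members were present. Of 61 member transcripts with a read, 27 had at least 20 reads over both libraries. None was at least 2-fold higher, against 3.16% of 13807 transcripts, and 2 were at least 2-fold lower, against 6.04%. Both are Mdm2 models with a retained intron: Mdm2-205 had 26 reads in the control and 5 in the knockdown (ratio 0.316, 0.0948 to 0.836), and Mdm2-208 had 28 and 8 (0.469, 0.185 to 1.06). All retained-intron models together were 12.8% of Mdm2 reads in the control (62 reads, 10.1 to 16.1) and 4.86% in the knockdown (14 reads, 2.92 to 7.99). Besides those 2 transcripts they hold only Mdm2-204, with 8 and 1 reads, so this share repeats the selection and is no separate support. The retained-intron share of E4f1 was 12.8% in the control (5 reads, 5.60 to 26.7) and 14.8% in the knockdown (4 reads, 5.92 to 32.5). In the same order, that of Zmat3 was 7.87% (7 reads, 3.86 to 15.4) and 11.5% (7 reads, 5.67 to 21.8). For Mdm4 it was 18.8% (29 reads, 13.4 to 25.7) and 12.5% (13 reads, 7.45 to 20.2). For Bax it was 1.08% (13 reads, 0.634 to 1.845) and 0.681% (5 reads, 0.291 to 1.585). In each of these genes the intervals of control and knockdown overlapped, so no rise or fall is read from the shares. With a pseudocount of 5 reads 1 transcript stayed past 2-fold, and with a minimum of 50 reads 0 did. There was no replicate of either library.

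By reads in the control library, the most abundant transcript of each gene was taken. These were Trp53-201 with 404 and 280 reads, Bax-201 with 775 and 435, Ccng1-201 with 298 and 155, Mdm2-201 with 182 and 125 and Cdkn1a-201 with 111 and 69. The others were Aen-203 with 107 and 57 (Aen-201 had 94 and 75, more in the knockdown), Trp53inp1-201 with 105 and 37, Mdm4-210 with 88 and 71, Zmat3-201 with 68 and 44 and E4f1-201 with 21 and 14. Of these, Trp53inp1-201 had an interval that left out 1, with a ratio of 0.579 (0.387 to 0.850). Aen-204, a noncoding transcript, had 30 and 34 reads, a ratio of 1.86 (1.11 to 3.15), and was chosen after its values were seen.

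Other genes of the circuit were compared by list. Of 30 further p53 targets, 26 were tested for spliced reads: 1 rose and 2 fell, against 1.96% and 6.76% of all genes, and the median log2 fold change was 0.04, against 0.01 over all genes. The 2 of 26 that fell are near the background. Ckap2, a cytoskeleton-associated protein of the mitotic spindle, rose from 153 and 162 CPM to 188 and 233 (log2 fold change 0.42, adjusted p = 0.00582). Fdxr, the mitochondrial ferredoxin reductase, fell from 10.5 and 13.0 to 4.88 and 4.14 (−1.36, adjusted p = 0.0004), and Plk3, a stress-response kinase, fell from 128 and 149 to 113 and 105 (−0.34, adjusted p = 0.0277).

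Fdxr and Plk3 also passed the test for lower splicing efficiency over the gene. Fdxr had 0.863 and 0.829 in the controls and 0.638 and 0.556 after knockdown (1.89 as a log2 odds ratio, adjusted p = 0.000328), and Plk3 had 0.949 and 0.942 against 0.894 and 0.878 (1.17, adjusted p = 9.7e-05). These values stand outside the range of every member, whose gene-level odds ratios lay between −0.33 and 0.54. They were 2 of 27 targets tested for efficiency, against 6.98% of all genes called lower. Introns called lower in the target list were 4 of 147, 1 in Fdxr and 3 in Plk3, against 1.71% of all introns and 5.02% of those of at most 500 nt.

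Of 27 regulators of p53, 26 were tested: 0 rose and 1 fell, against 1.96% and 6.76% of all genes. Daxx, a histone chaperone, fell from 58.8 and 62.9 CPM to 49.0 and 42.4 (−0.41, adjusted p = 0.0274). Kat5, an acetyltransferase that modifies p53, passed for lower splicing efficiency, with 0.810 and 0.785 in the controls and 0.682 and 0.648 after knockdown (0.99 as a log2 odds ratio, adjusted p = 0.0182), and 1 of its introns (77 nt) was called lower, from 0.726 and 0.585 to 0.450 and 0.140. It was the only one of 26 regulators called lower in efficiency, and that intron the only one of 317 called, against 6.98% of all genes and 1.71% of all introns. All 10 genes of the E4F1 target list were tested, and 0 rose or fell. Their median log2 fold change was −0.06, and 1 intron of Pdha1, a subunit of pyruvate dehydrogenase, was called lower, from 0.983 and 0.972 to 0.930 and 0.875. That was 1 of 67 introns tested in this list, near the 1.71% of all introns, and is not read as a result about the list.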

How the data were processed

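The authors' SPLICE-q tables of total RNA (tool per the labels) hold junction read counts, split or unsplit, for the ends of every intron. Their score is a deposited fraction from 0 to 1; tested on the files, it is split over all junction reads, and no listed junction has under 10 reads. The Nanopore tables deposited by the authors hold read counts by transcript. The submitters' processing notes name SAMtools, minimap2 and GRCm39 without roles; strand use is not given in the sources used here, and Mdm4 and Cdkn1a overlap a gene on the opposite strand.

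Repeated introns were reduced to 1. Introns listed in all 4 libraries, with at least 10 split and 10 unsplit reads over them, were tested with edgeR 4.0.16 (R 4.3.3): a split and an unsplit column per library, testing unsplit reads in the knockdown. Reads spanning an intron count at both ends. Gene sums used introns listed under 1 gene. Spliced reads are 5′ split reads per gene with TMM scaling. P-values were Benjamini-Hochberg adjusted over all features, threshold 0.05. Names, transcript structure and sequences came from GENCODE M21, another build, so coordinates are those of the tables. Long-read values are CPM of the library total with a pseudocount of 0.5 reads scaled to depth, for transcripts with at least 20 reads, with no test. Tests were tried on simulated data: sizes of change were recovered, but with the replicate spread of these libraries the intron test called few changes, so 0 called introns is weak evidence. DESeq2 1.42.0, limma 3.58.1 and the alternatives below were also run.

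Named items were every member, the intron of each with the largest difference among those with 50 reads in every library, its most abundant transcript, transcripts past 2-fold, list genes past the threshold, and the genes nearest to E4f1 in splicing efficiency, of which 1 is not reported here. The members and lists were chosen with earlier results of these data known.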

Additional observations from a re-analysis of the deposited data

Results flagged for a closer look

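An E4f1 intron annotated only for the transcript E4f1-203 (chr17:24685707-24689063, 3357 nt) was outside the comparisons because it was listed in 1 library alone. Knockdown replicate 1 had 18 split and 13 unsplit reads there, and the other 3 libraries did not list it. No listed junction has under 10 reads, so an intron that is not listed need not have 0 reads.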

How the results depend on the processing

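The count of member introns called was 0 under every alternative run. Gene-level efficiency gave 0 calls, and 1 (Mdm2, −0.36, edgeR adjusted p = 0.0147) when split and unsplit reads were scaled separately. That call is relative to the shift of unsplit reads over all genes. For spliced reads the count of 1 became 0 with the best covered intron alone (Trp53 0.33, adjusted p = 0.153). With 1 library left out the count also changed, but an arm then had 1 sample, which was assumed to vary like the other group. Without knockdown replicate 1 the log2 fold changes included 0.45 for Trp53, 0.38 for Mdm2, 0.27 for Mdm4, 0.50 for Ccng1 and −0.35 for Bax. Deviations of same-numbered samples were nearly uncorrelated over features (0.017 over genes and 0.013 over introns), and the numbers were not taken as pairs. Such a correlation does not see a shift shared by a whole library. With a replicate block, standard errors of gene-level log2 odds ratios were smaller, 0.12 against 0.23 for Trp53 and 0.10 against 0.21 for Mdm2. The E4f1 log2 odds ratio was then 0.55 (edgeR, adjusted p = 0.130), and 0 members were called for efficiency. For spliced reads the count with the block was 2, with Ccng1 (0.24, adjusted p = 0.0371) added. Transcripts past 2-fold were 1 in place of 2 with a pseudocount of 5 and 0 with at least 50 reads.

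The values that changed sign were not called in the setting reported, nor where the sign turned. With the 5′ junction alone, the log2 odds ratio was 0.0033 for Ccng1 and −0.028 for Aen. With the 3′ junction alone it was 0.062 for Bax intron 4, 0.079 for Trp53 and 0.050 for Bax. With separate scaling it was −0.017 for Aen. With 1 library left out, it ranged from −1.27 to 0.0049 for Trp53 intron 5, −0.56 to 0.032 for Mdm2 intron 6, −0.52 to 0.51 for Bax intron 4, −0.83 to 0.19 for Cdkn1a and its intron 2, −0.18 to 0.063 for Ccng1, −0.64 to 0.11 for Zmat3, −0.37 to 0.28 for Bax and −0.31 to 0.027 for Trp53inp1. Log2 fold changes of spliced reads ranged from −0.11 to 0.38 for Mdm2, −0.055 to 0.19 for Cdkn1a and −0.0079 to 0.50 for Ccng1. The causes were not tested. Cdkn1a and single E4f1 introns had few reads and wide intervals, and 2 libraries a group limit every test.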
